A study of Mus musculus with 33 samples.

Results

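The comparison set colon regulatory T cells (Treg) that carried both TSLPR and ST2 on their surface and came from mice with colitis-associated cancer against the same gate of naive mice. Libraries were chosen by their sort label, which had to show TSLPR and Il1rl1 (the gene of ST2) as positive, and by their cancer status, giving 8 of the 33 libraries of the series. The cancer group held 4 libraries, from mice 5 to 8, and the naive group held 4, from mice 1 to 4, with 1 library of 200 sorted cells per mouse. All 8 mice had the genotype labelled Foxp3-yfp B6, a Foxp3 reporter on the C57BL/6 background, and the sort took CD45+ TCR+ CD4+ Foxp3+ cells of digested colon. Purchased mice of the study were 7 to 12 weeks old and controls were matched for age and sex, while the age at sacrifice was not given in the sources used here. Cancer mice had received azoxymethane (AOM), a colon carcinogen, once at 10 mg/kg, and then dextran sulfate sodium (DSS), which injures the colon epithelium, in 3 cycles with 7 days of DSS each, the number stated for the C57BL/6 background. They were taken 2 weeks after the last DSS. Naive mice carried the same reporter allele and no cancer treatment is labelled for them, and whether they were mock-treated was not given in the sources used here. With no arm on a single agent among these samples, tumours, past colitis and the agents themselves cannot be told apart as sources of a difference. The libraries are bulk RNA, so a lower level of a transcript can come from fewer cells that hold it or from less of it per cell, and these cannot be told apart either.

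Treg are CD4+ T cells that restrain immune responses, and their identity is set by the transcription factor Foxp3. In the colon many of them carry ST2, the receptor for the alarmin IL-33, and some carry TSLPR, which pairs with the IL-7 receptor alpha chain to bind the epithelial cytokine TSLP. Treg depend on IL-2, which acts through the receptor chains Il2ra, Il2rb and the common gamma chain and the kinases Jak1 and Jak3 on the STAT5 factors. They also display latent TGF-beta on their surface, bound to the protein encoded by Lrrc32. The series asks how the TSLP and IL-33 receptors relate to Treg in colorectal cancer.

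In TSLPR+ST2+ Treg of cancer mice, 247 genes were higher (1.66% of 14861 tested) and 371 were lower (2.5%) than in naive mice. Genes of the IL-2 receptor and STAT5 route (8 of 12), Lrrc32, Tgfb1, the AP-1 subunit Junb and the ERK phosphatase Dusp5 were among the lower ones. The inflammasome protease Casp1, the RNA helicase Ddx17, the nuclear RNAs Malat1 and Neat1 and all 7 tested mitochondrially encoded messenger RNAs were among the higher ones. Depth, mitochondrial share and macrophage transcripts of the 2 groups of libraries did not overlap, and they are described first.

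The cancer libraries were shallower than the naive ones. Totals of counts were 4038718, 4924172, 4869433 and 5816224 in cancer mice 5 to 8, against 6607867, 7227769, 8374465 and 8839946 in naive mice 1 to 4. Mitochondrial genes took 2.83, 2.42, 3.23 and 1.43% of the counts in cancer libraries, against 1.24, 0.861, 0.618 and 0.742% in naive libraries. For both measures the groups did not overlap, and each gave an exact two-sided permutation p = 0.0286, the smallest that 4 against 4 allows, or 0.133 after Benjamini-Hochberg (BH) adjustment over 14 measures.

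Transcripts of other cells were present in this gate. Summed over 18 epithelial markers, CPM (counts scaled to a common library total, here from plain totals) were 747, 331, 19023 and 202 in cancer mice 5 to 8, against 423, 259, 166 and 244 in naive mice. Cancer mouse 7 stood far above the rest, with Krt8, the keratin of simple epithelia, at 820.4 CPM where the other 7 libraries had at most 17.1 CPM. The groups overlapped (exact permutation p = 0.229), all 18 markers were detected in some library and 15 had a higher mean in cancer libraries. Summed over 12 macrophage markers the values ran the other way, at 676, 1524, 1090.5 and 711 CPM in cancer libraries and 3686, 3021, 2316 and 2849.7 CPM in naive libraries. These groups did not overlap (exact permutation p = 0.0286, BH-adjusted 0.133), all 12 markers were detected and 7 had a lower mean in cancer libraries. Lyz2 and Apoe held most of the difference in this sum, and 5 markers, among them Adgre1 and Mrc1, had a higher mean in cancer libraries. Dendritic cell and MHC class II markers summed to 2508 to 6327 CPM in cancer libraries and 782 to 2784 CPM in naive libraries (exact permutation p = 0.114). Haemoglobin genes appeared in cancer mouse 5, where erythroid and glial markers summed to 682 CPM against at most 5.96 CPM in the other 7 libraries. Markers of T cells and Treg summed to 7287 to 8761 CPM in cancer libraries and 6877 to 8481 CPM in naive libraries, with 9 of 9 detected. This sum held members that moved both ways. In cancer libraries 4 had a higher mean (Cd3g, Trac, Ptprc and Ikzf2) and 5 a lower one (Cd3e, Cd4, Foxp3, Il2ra and Ctla4). Cd4, Il2ra and Ikzf2 were among those whose values did not overlap between the groups.

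**Figure D1:**
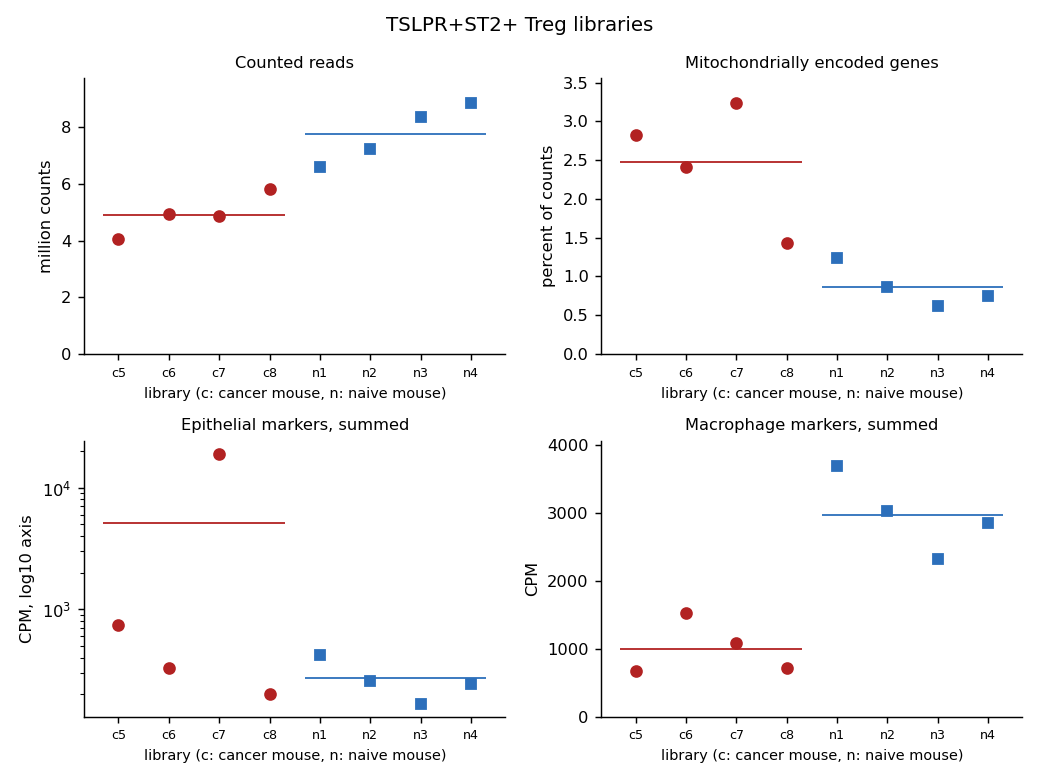
Library measures by mouse in TSLPR+ST2+ Treg, with cancer mice left of naive mice and 1 point per library and a line at each group mean, for total counts, mitochondrial share in percent, and summed CPM of epithelial (log10 axis) and macrophage markers. Cancer libraries lie below naive libraries in total counts and in macrophage markers and above them in mitochondrial share, and cancer mouse 7 stands apart at 19023 CPM of epithelial markers.

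Naive libraries also resembled each other more than cancer libraries did. Across genes, which are not independent replicates, log2 CPM of 2 cancer libraries correlated at 0.818 to 0.862 and of 2 naive libraries at 0.899 to 0.910. Pairs with cancer mouse 7 gave 0.818 to 0.825, and the other cancer pairs gave 0.853 to 0.862.

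The genes of the sort were present in every library. Il1rl1, the ST2 gene (chromosome 1, 40429570 to 40465415, + strand of GRCm38), had 200.2, 182, 158 and 199.5 CPM in cancer libraries and 174, 106, 294 and 174 CPM in naive libraries (CPM of genes use TMM-scaled totals). Crlf2, which encodes TSLPR (chromosome 5, 109554709 to 109558993, - strand), had 25.2, 32.9, 29.7 and 54.2 CPM in cancer libraries and 43.0, 53.2, 57.2 and 39.1 CPM in naive libraries. Both sets overlapped between the groups and neither gene passed (adjusted p = 0.998 for Il1rl1 and 0.364 for Crlf2). Foxp3 (chromosome X, 7573644 to 7595245, + strand) had 85.1, 59.9, 96.0 and 122 CPM in cancer libraries and 148, 187, 107 and 176 CPM in naive libraries. Cancer mouse 8 lay above naive mouse 3, so the groups overlapped, and Foxp3 was 1.70-fold lower (log2 change -0.77 ± 0.22, SE; n = 4 each; edgeR quasi-likelihood adjusted p = 0.0431). This call was lost when cancer mouse 5 or 6 or naive mouse 1, 2 or 4 was left out, with adjusted p up to 0.159, and with mouse as a random effect (adjusted p = 0.0799). It was also lost with the GC trend removed (adjusted p = 0.174).

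In the test of all genes, which used counts of all 32 Treg libraries of the series to estimate the spread, 618 genes passed an adjusted p of 0.05, or 4.16% of those tested, and 3001 genes had an unadjusted p under 0.05. In 1406 genes (9.46%) the 4 cancer values and the 4 naive values did not overlap. The median log2 change over all genes was 0.05, with 7812 positive and 6990 negative. For each gene list below, the shares over all genes are 1.66% higher and 2.5% lower. Within the same model the other 3 gates gave 7 higher and 23 lower genes (TSLPR-ST2+), 4 and 3 (TSLPR+ST2-) and 9 and 22 (TSLPR-ST2-). In those 3 gates the median total of counts was 6434437.5 in cancer and 6377644.5 in naive libraries. Their mitochondrial share ran from 0.958 to 1.96% in cancer and from 0.616 to 1.28% in naive libraries. Cancer and naive libraries of TSLPR+ST2+ Treg did not overlap in either measure. The counts of genes thus compare gates whose libraries differ in these measures.

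The size of this count rested on several choices. With the spread taken from the 8 libraries of the gate alone, 17 of 11997 genes passed (0.142%), 2 higher and 15 lower, while 1953 had an unadjusted p under 0.05. With the log2 mitochondrial share of each library as a covariate 4 genes passed, all lower. In this fit 470 of the 618 genes kept their sign and the median size of their change fell to 0.350 of its value. The share did not overlap between cancer and naive libraries of this gate, so the fit cannot fully separate it from cancer status. A covariate for epithelial transcripts left 217 genes, and one for macrophage transcripts left 375. The macrophage covariate ended the calls of Foxp3, Itgae, Itgb7, Ikzf2 and S100a11, with adjusted p between 0.0511 and 0.0771. Libraries thinned to the smallest total gave 669 genes. Fits without a mouse left out its libraries of all gates, not only that of this gate. Without cancer mouse 5, 6, 7 or 8 the count was 349, 451, 353 or 749. It was 553, 369, 171 or 187 without naive mouse 1, 2, 3 or 4. Apart from the marker Krt8, 72 genes are given here with values by library or group. Of these, 68 passed in the full test and 51 of those passed whichever mouse was left out. Of the 68, 61 passed with the GC trend removed, 56 with the length trend removed, 51 with the epithelial covariate, 16 with the 8 libraries alone and 1 with the mitochondrial covariate.

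Transcript composition moved with the calls. The higher genes had a median GC content of 46.8% and a median exon length of 2595 bases, the lower genes 53.9% and 4957 bases, and all genes tested 48.9% and 3760 bases. In 5 bins of GC content with equal numbers of genes, lowest first, the number of higher genes was 76, 53, 45, 39 and 34, and of lower genes 17, 31, 63, 94 and 166. For genes above a mean log2 CPM of 3, the median log2 deviation from the mean of all 32 libraries in the lowest bin minus that in the highest was 0.28, 0.21, 0.098 and 0.149 in cancer mice 5 to 8 and -0.138, -0.106, -0.429 and -0.198 in naive mice 1 to 4, without overlap. With the GC trend of each library removed the balance turned, with 328 genes higher and 220 lower (3.69% of those tested), and 411 of the 618 genes passed in both fits. With the length trend removed 247 were higher and 232 lower. The share of higher genes among calls was thus 59.9% and 51.6%, against 40.0% without these corrections.

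**Figure D2:**
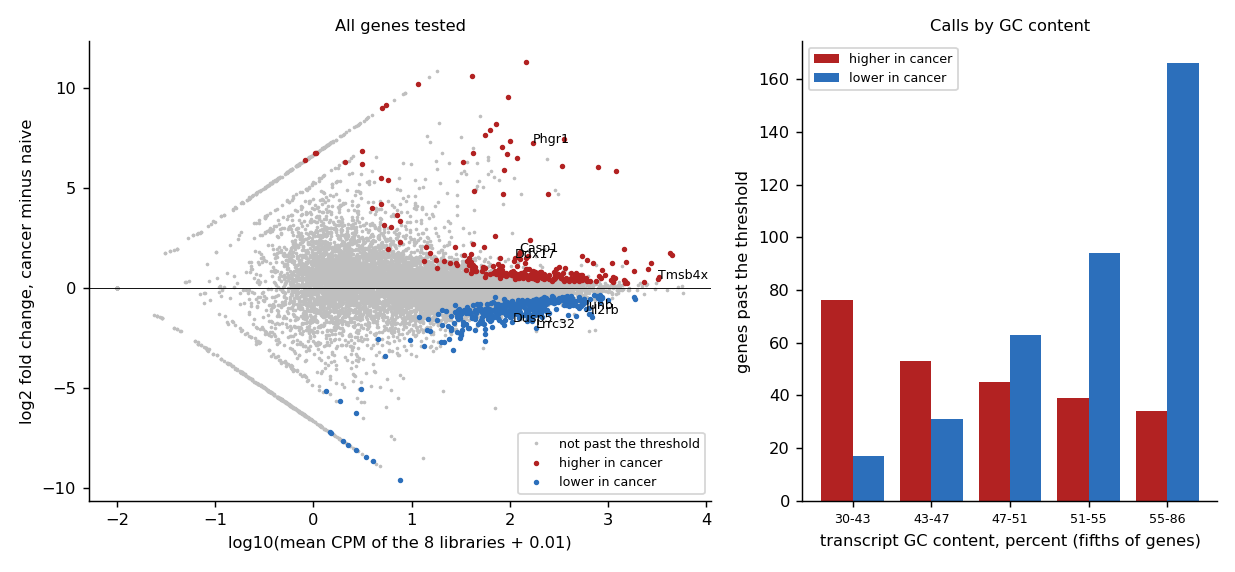
Left, log2 change (cancer minus naive) against log10 of the mean CPM of the 8 libraries (plus 0.01) for the 14861 genes tested in TSLPR+ST2+ Treg, with genes past an adjusted p of 0.05 coloured by direction. Right, the number of higher and lower genes in 5 bins of transcript GC content, where the lowest bin holds 76 higher and 17 lower genes and the highest holds 34 and 166.

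Dusp5 had the smallest p of all genes. It encodes a nuclear phosphatase that dephosphorylates ERK and is itself induced by ERK signalling. Dusp5 (chromosome 19, 53529109 to 53542431, + strand) had 54.4, 47.8, 56.3 and 40.0 CPM in cancer libraries and 138, 161, 169.9 and 184 CPM in naive libraries. The highest cancer value was less than the lowest naive value by a wide margin, and Dusp5 was 3.29-fold lower (log2 change -1.72 ± 0.18, adjusted p = 1.82e-06). It passed with the 8 libraries alone (adjusted p = 0.0129) and had adjusted p = 0.0656 with the mitochondrial share as a covariate (log2 change -1.38).

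Only 3 genes passed when the 8 libraries were fitted alone and the GC trend was removed, an alternative added after the data were seen: Dusp5 was lower, and Casp1 and Ddx17 were higher. Their promoters are therefore shown, as the 250 bases before the annotated start, from RefSeq on GRCm38.p6, read along the gene's own strand from 5′ to 3′. Capitals mark matches, on either strand, to motifs that were searched in all promoters of the tested genes: a GC box (GGGCGG), an ETS motif (CCGGAAG), a cyclic AMP response element (TGACGTCA), an AP-1 motif (TGANTCA), a STAT motif (TTCNNNGAA), the interferon-stimulated element and the CArG box that serum response factor binds.
Dusp5, chr19:53528895-53529144, + strand: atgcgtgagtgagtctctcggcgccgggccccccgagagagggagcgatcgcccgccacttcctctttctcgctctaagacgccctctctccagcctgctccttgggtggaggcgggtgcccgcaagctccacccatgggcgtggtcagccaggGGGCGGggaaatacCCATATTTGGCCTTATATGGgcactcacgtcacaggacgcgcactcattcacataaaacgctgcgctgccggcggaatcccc
Casp1, chr9:5298267-5298516, + strand: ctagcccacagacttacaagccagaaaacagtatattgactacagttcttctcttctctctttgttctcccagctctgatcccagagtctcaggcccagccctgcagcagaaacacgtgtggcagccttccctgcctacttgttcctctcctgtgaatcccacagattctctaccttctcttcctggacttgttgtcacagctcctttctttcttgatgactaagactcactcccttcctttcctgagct
Ddx17, chr15:79546742-79546991, - strand: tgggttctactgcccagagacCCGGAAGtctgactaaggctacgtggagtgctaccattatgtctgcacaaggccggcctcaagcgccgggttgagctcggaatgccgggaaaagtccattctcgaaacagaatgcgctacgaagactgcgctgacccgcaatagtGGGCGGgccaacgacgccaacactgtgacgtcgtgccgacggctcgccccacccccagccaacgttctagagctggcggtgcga
The Dusp5 window held a GC box that began 96 bases before the start and a pair of adjoining CArG boxes, CCATATTTGG and CCTTATATGG, that began 82 and 72 bases before it. The Ddx17 window, at the first of 2 starts in the table, held an ETS motif at 229 and a GC box at 84 bases before the start. The Casp1 window held none of the motifs, and its GC content of 49.2% was below that of the Dusp5 window (64.0%) and the Ddx17 window (60.8%).

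Motif shares in the promoters of changed genes were set beside those of all tested genes. A gene was counted if any of its promoters held the motif. A CArG box was found in 1.18% of 170 higher genes and 1.61% of 311 lower genes, against 1.4% of all 10166 tested genes with a promoter. The GC box was in 58.8% of higher and 66.9% of lower genes against 61.4% of all. The ETS motif was in 22.4% of higher and 15.4% of lower genes against 16.0%, and the AP-1 motif in 7.65% and 6.11% against 5.35%. The STAT motif was in 7.65% and 9.0% against 7.11%, the interferon-stimulated element in 4.12% and 6.11% against 3.38%, and the cyclic AMP response element in 2.94% and 3.22% against 2.95%. These shares were not tested.

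Junb, an AP-1 subunit that partners BATF in effector Treg (chromosome 8, 84974484 to 84978718, - strand), had 348, 361, 434 and 396 CPM in cancer libraries and 737, 858, 838 and 798 CPM in naive libraries. Each cancer value was below each naive value, and Junb was 2.1-fold lower (log2 change -1.07 ± 0.14, adjusted p = 0.000108; 0.0129 with the 8 libraries alone). Of 22 tested AP-1 and immediate early genes 3 fell, against 2.5% of all genes, and none rose, with a median log2 change of -0.44. The other fallen genes were Zfp36, which destabilises cytokine messenger RNAs (145 ± 29.3 CPM in cancer and 255 ± 37.8 CPM in naive libraries, SD, n = 4 each, 1.76-fold lower, adjusted p = 0.00343), and Myc. Of 15 ERK and MAP kinase feedback genes 2 fell, Dusp5 and Dusp2. Dusp2, another nuclear phosphatase of MAP kinases, averaged 213 ± 20.5 CPM in cancer and 326 ± 20.4 CPM in naive libraries (1.53-fold lower, adjusted p = 0.0107; 0.138 with the GC trend removed). The immediate early genes among these lists respond within minutes to handling of tissue, and the part of the digestion in these values was not tested.

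**Figure D3:**
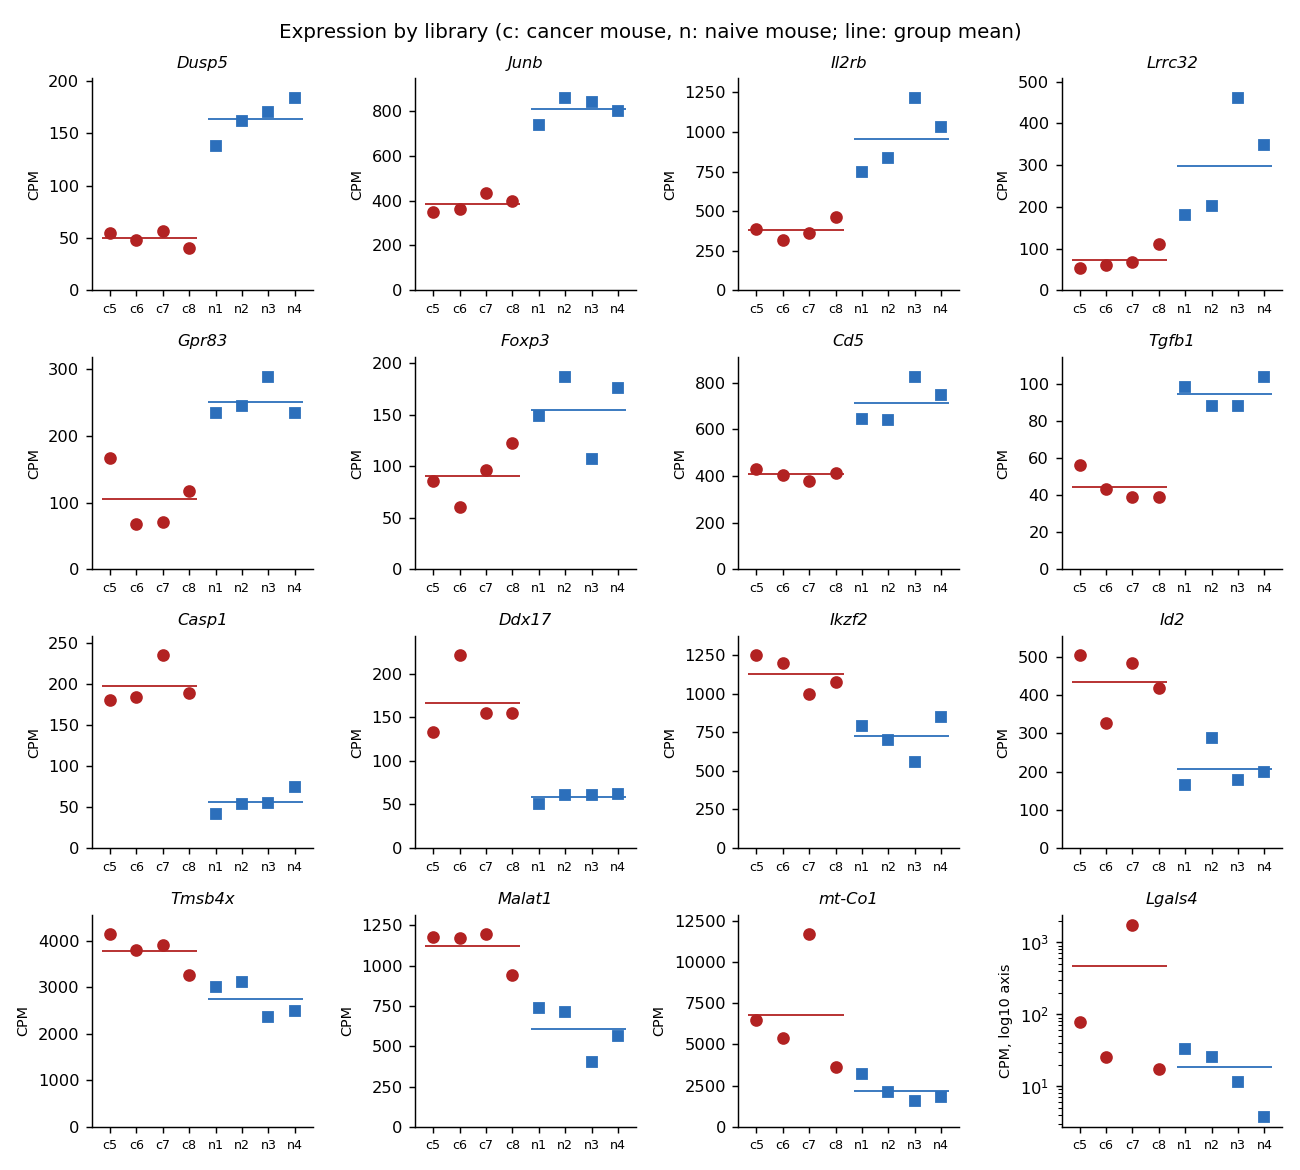
CPM (TMM-scaled totals; log10 axis for Lgals4 only) by library for 16 genes, with the 4 cancer mice left of the 4 naive mice, 1 point per library and a line at each group mean. Dusp5, Junb, Il2rb and Lrrc32 lie lower in every cancer library than in every naive library, Casp1 and Ddx17 lie higher, and Foxp3 overlaps.

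Among 14 genes of the Treg core list 6 fell, 1 rose and 7 did not pass, with a median log2 change of -0.46. Fits without 1 mouse gave 2 (cancer mouse 6 or naive mouse 4) to 5 fallen members, the epithelial covariate 3 and the 8 libraries alone 0. Lrrc32, which encodes GARP, the surface anchor of latent TGF-beta (chromosome 7, 98489283 to 98502181, + strand), had 52.2, 61.1, 68.5 and 110.0 CPM in cancer libraries and 181, 201, 462 and 349 CPM in naive libraries. The groups did not overlap although the naive values varied widely among themselves, and Lrrc32 was 4.08-fold lower (log2 change -2.03 ± 0.29, adjusted p = 0.000200). Gpr83, a G protein-coupled receptor long used to mark Treg (chromosome 9, 14860210 to 14870789, + strand), had 167, 67.5, 70.8 and 117 CPM in cancer libraries and 235, 244, 289 and 234 CPM in naive libraries. It was 2.37-fold lower without overlap (adjusted p = 0.000643). Foxp3, Il2ra, Itgae and Socs2 were the other fallen members. Ikzf2, which encodes Helios, moved the other way, with 1251, 1200.2, 1001 and 1078 CPM in cancer libraries and 793, 703, 556 and 852 CPM in naive libraries. It was 1.56-fold higher (adjusted p = 0.0192), and lost the call without cancer mouse 5 or naive mouse 2 or 3 (adjusted p up to 0.0687).

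Tgfb1, the gene of TGF-beta 1 (chromosome 7, 25687002 to 25705077, + strand), had 56.2, 43.4, 38.8 and 38.9 CPM in cancer libraries and 98.3, 88.1, 88.0 and 104 CPM in naive libraries. The groups were well apart, with Tgfb1 2.14-fold lower (log2 change -1.09 ± 0.20, adjusted p = 0.00303). Of 16 TGF-beta genes 4 fell and 12 did not pass, with a median log2 change of -0.25. Without cancer mouse 7, 2 of them fell. Itgae, the CD103 chain that pairs with integrin beta 7 to hold lymphocytes at epithelium, averaged 341 ± 73.3 CPM in cancer and 638 ± 206 CPM in naive libraries (1.87-fold lower, adjusted p = 0.0388). Itgb7, its partner, averaged 788 ± 169.6 CPM in cancer and 1209.6 ± 234 CPM in naive libraries (1.54-fold lower, adjusted p = 0.0292; 0.0609 with mouse as a random effect). Leaving out a mouse ended the call of Itgae in 6 and of Itgb7 in 5 of 8 fits, among them those without cancer mouse 5 or 7 or naive mouse 3 or 4, and with the GC trend removed (adjusted p = 0.0588 for Itgae and 0.116 for Itgb7). Of 25 homing receptor genes 4 fell, against 2.5% of all genes. In the fits without 1 mouse 0 (without naive mouse 3 or 4) to 3 fell.

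The IL-2 receptor and STAT5 list had 8 of 12 members lower, 0 higher and 4 not passing in the full test, against 2.5% of all genes, and a median log2 change of -0.70. Il2rb, the signalling chain shared by the IL-2 and IL-15 receptors (chromosome 15, 78479256 to 78495271, - strand), had 388, 316, 365 and 462 CPM in cancer libraries and 745, 837, 1217 and 1031 CPM in naive libraries. No values overlapped, and Il2rb was 2.50-fold lower (log2 change -1.32 ± 0.24, adjusted p = 0.00236; 0.0373 with the 8 libraries alone). Il2ra, the high-affinity chain CD25, had 314, 256, 354 and 322 CPM in cancer libraries and 455, 519.8, 434 and 581 CPM in naive libraries, again without overlap (1.60-fold lower, adjusted p = 0.0112, and 0.0647 at most, without cancer mouse 6 or naive mouse 4). Jak3, the kinase bound to the common gamma chain, had 101, 84.2, 139 and 128 CPM in cancer libraries and 203, 271, 543 and 243 CPM in naive libraries (2.78-fold lower, adjusted p = 0.00550). Stat5b, a transcription factor that this route activates, had 76.0, 70.1, 125 and 189 CPM in cancer libraries and 216, 259, 504 and 241 CPM in naive libraries (2.65-fold lower, adjusted p = 0.0107). For Jak3 and Stat5b the highest value came from naive mouse 3, and both were at adjusted p = 0.0540 without it. Stat5a, Jak1, Socs2 and Socs3 were the other fallen members.

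The IL-2 list depended on the libraries in the fit. Without cancer mouse 6 it had 4 lower members, without cancer mouse 7 it had 5, without naive mouse 3 it had 2 and without naive mouse 4 it had 3, while its median was -0.77, -0.73 and -0.68 without cancer mouse 7, naive mouse 3 and naive mouse 4. With epithelial transcripts as a covariate it had 3. With the 8 libraries alone Il2rb was its only member past the threshold. With the mitochondrial share as a covariate 0 members passed and the median log2 change was -0.02, with Il2rb at -0.07, Jak3 at -0.22 and Il2ra at -0.92. In the other gates the medians of the list were -0.31 (TSLPR-ST2+), -0.44 (TSLPR+ST2-) and -0.39 (TSLPR-ST2-), and no member passed the test of the difference between gates.

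Of 25 genes of T cell receptor signalling 5 fell and 1 rose, with a median log2 change of -0.09. The fallen were 3 without cancer mouse 6 or 7 or naive mouse 3 and with the epithelial covariate, and 2 with the GC trend removed. Cd5, a receptor that dampens antigen signals and tracks their strength (chromosome 19, 10717116 to 10739002, - strand), had 431, 404, 379.7 and 413 CPM in cancer libraries and 645, 640.4, 827 and 748 CPM in naive libraries. The cancer values lay close together and below all naive ones, at 1.76-fold lower (adjusted p = 0.000759; 0.0443 with the 8 libraries alone). Cd6, a related receptor, averaged 373 ± 124 CPM in cancer and 915 ± 232 CPM in naive libraries (2.45-fold lower, adjusted p = 0.00550). Zap70, the kinase recruited to the receptor's CD3 chains, averaged 168 ± 18.1 CPM in cancer and 246 ± 22.3 CPM in naive libraries (1.47-fold lower, adjusted p = 0.00633; 0.266 with the GC trend removed). Nfatc1 also fell. Lat, the membrane adaptor that Zap70 phosphorylates, rose 1.33-fold, at 681 ± 60.1 CPM in cancer and 510.3 ± 66.1 CPM in naive libraries (adjusted p = 0.0107). The call of Lat was lost without cancer mouse 7 or naive mouse 3 or 4 (adjusted p up to 0.0704).

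Other fallen genes act beside the antigen receptor. Hcls1, a haematopoietic actin regulator phosphorylated on receptor signalling, averaged 113 ± 7.74 CPM in cancer and 226 ± 16.7 CPM in naive libraries (2.00-fold lower, adjusted p = 0.000349). Cotl1, which encodes the actin-binding coactosin-like protein, averaged 219.5 ± 39.2 CPM in cancer and 570.3 ± 145 CPM in naive libraries (2.60-fold lower, adjusted p = 0.0139). Both also passed with the 8 libraries alone. Macrophages express Hcls1 and Cotl1 too, and with macrophage transcripts as a covariate the adjusted p was 0.00240 for Hcls1 and 0.0345 for Cotl1. The part of macrophages in these values was not tested. Nt5e, the ectoenzyme CD73 that makes adenosine, averaged 359 ± 60.8 CPM in cancer and 670.2 ± 115 CPM in naive libraries (1.87-fold lower, adjusted p = 0.00574), and was the only one of 12 inhibitory receptor and ectoenzyme genes to pass. Tnfrsf1b, the TNF receptor 2 that supports Treg, averaged 368 ± 70.6 CPM in cancer and 994 ± 369.6 CPM in naive libraries (2.70-fold lower, adjusted p = 0.00993), and was the only one of 12 in its family list.

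Of 27 tested interferon response genes 4 fell, against 2.5% of all genes, and none rose. Of the 27, 23 had a negative log2 change, against 6990 of all 14861 genes. Without naive mouse 3 or with the epithelial covariate 2 fell, and 6 fell without cancer mouse 8. The fallen genes were Irf7, Ddx58, Ifit3 and Stat2, a subunit of the interferon-activated factor ISGF3. Irf7, the factor that amplifies type I interferon (chromosome 7, 141262706 to 141266481, - strand), had 282, 311, 429 and 420.0 CPM in cancer libraries and 546, 582, 677 and 503 CPM in naive libraries. The groups did not overlap (1.60-fold lower, adjusted p = 0.00573; 0.0581 with the GC trend removed). Ddx58, which encodes the viral RNA sensor RIG-I, had 71.0, 78.1, 90.6 and 164 CPM in cancer libraries and 209, 215, 324 and 243 CPM in naive libraries (2.45-fold lower, adjusted p = 0.00550). Ifit3, an interferon-induced antiviral gene with a near-identical copy that the counting may split, averaged 111 ± 48.8 CPM in cancer and 272 ± 108 CPM in naive libraries (2.45-fold lower, adjusted p = 0.00784, and 0.0683 without naive mouse 3). The median log2 change of the list was -0.52 here and -0.53, -0.53 and -0.88 in TSLPR-ST2+, TSLPR+ST2- and TSLPR-ST2- Treg. Trafd1, an interferon-induced negative regulator of innate signalling outside the list, averaged 44.6 ± 18.2 CPM in cancer and 135 ± 37.6 CPM in naive libraries (3.03-fold lower, adjusted p = 0.00110).

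MHC class I genes were mixed, with 1 of 13 higher and 3 lower in the full test and a median log2 change of -0.12. With the GC trend removed the balance turned, to 3 higher and 1 lower and a median of 0.08. With the epithelial covariate 1 was higher and 0 lower. B2m, the light chain of class I molecules, rose 1.45-fold, at 4445, 3602, 4407 and 3280.3 CPM in cancer libraries and 2941, 3201, 2323 and 2407 CPM in naive libraries (adjusted p = 0.00556). The 3 fallen members were Tap1, Tapbp and H2-T22, of the peptide loading route and the nonclassical molecules, and 0 of the list fell without cancer mouse 7 or naive mouse 3 and 1 without cancer mouse 5 or 6 or naive mouse 2 or 4. Abcb9, a lysosomal peptide transporter related to TAP, averaged 38.1 ± 13.9 CPM in cancer and 136 ± 8.18 CPM in naive libraries (3.56-fold lower, adjusted p = 0.000188; 0.0443 with the 8 libraries alone).

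Further genes of the smallest p among the fallen have general cell functions. Snapc4, a subunit of the complex that starts small nuclear RNA genes, had 2.23, 8.96, 2.27 and 7.60 CPM in cancer libraries and 37.5, 39.8, 27.4 and 33.4 CPM in naive libraries (6.46-fold lower, adjusted p = 0.000188). Unk, an RNA-binding zinc finger protein, had 4.95, 1.19, 3.18 and 12.2 CPM in cancer libraries and 35.7, 36.3, 72.6 and 43.0 CPM in naive libraries (8.60-fold lower, adjusted p = 0.000227). Dctn1, the large dynactin subunit, had 34.4, 22.7, 19.7 and 23 CPM in cancer libraries and 69.9, 91.3, 83.6 and 69.9 CPM in naive libraries (3.16-fold lower, adjusted p = 0.000188). All 3 were far apart between the groups. Zfp940, a zinc finger gene of a family with many similar copies, had 0 counts in all 4 cancer libraries and 18.9, 23.8, 13.1 and 5.29 CPM in naive libraries. Set against the limit of 3 counts over the cancer group, it was at least 98.8-fold lower (adjusted p = 0.00105), and it passed with the mitochondrial share as a covariate (adjusted p = 0.0317).

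Hdac7, a class IIa histone deacetylase of T cells, averaged 51.3 ± 17.4 CPM in cancer and 130.2 ± 12.5 CPM in naive libraries (2.54-fold lower, adjusted p = 0.000227). Mthfd1, an enzyme of folate metabolism, averaged 31.9 ± 3.51 CPM in cancer and 97.0 ± 24.9 CPM in naive libraries (3.04-fold lower, adjusted p = 0.000210), and Capn3, a calpain protease best known from muscle, was 3.23-fold lower (adjusted p = 0.000227). The endocytic protein gene Fcho1 (2.08-fold lower), the Polycomb gene Phc2 (2.56-fold), the GDP-fucose transporter gene Slc35c1 (3.09-fold), the glucosidase gene Mogs (2.69-fold) and the polyadenylation factor gene Cpsf1 (2.33-fold) fell and passed also with the 8 libraries alone.

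Casp1, the inflammasome's effector protease, which processes interleukin precursors (chromosome 9, 5298517 to 5307265, + strand), had 179.6, 184, 234 and 189 CPM in cancer libraries and 41.6, 53.2, 54.1 and 73.8 CPM in naive libraries. Every cancer value was well above every naive value, and Casp1 was 3.53-fold higher (log2 change 1.82 ± 0.38, adjusted p = 0.00718; 0.0144 with the 8 libraries alone). Its log2 change was of like size in the other gates, at 1.80 (TSLPR-ST2+, adjusted p = 0.0370), 1.37 (TSLPR+ST2-, adjusted p = 0.297) and 2.21 (TSLPR-ST2-, adjusted p = 0.00981), and the difference between gates did not pass. The other 8 tested inflammasome genes did not pass. Macrophages also express Casp1. Their 12 markers summed to 676 to 1524 CPM in cancer libraries and 2316 to 3686 CPM in naive libraries, with 5 higher on average in cancer libraries and 7 lower. Lyz2 and Apoe, which held most of the difference in the sum, were among the lower ones, and Adgre1 and Mrc1 were among the higher ones. With macrophage transcripts as a covariate the log2 change of Casp1 was 1.79 (adjusted p = 0.0188). The part of macrophages in the Casp1 values was not tested.

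Ddx17, an RNA helicase that works in splicing and microRNA processing (chromosome 15, 79527736 to 79546741, - strand), had 133, 221, 155 and 155 CPM in cancer libraries and 50.7, 60.6, 61.0 and 62.3 CPM in naive libraries. The naive values were tightly grouped below all cancer values, and Ddx17 was 2.83-fold higher (log2 change 1.5 ± 0.18, adjusted p = 2.52e-05; 0.0299 with the 8 libraries alone). Malat1, an abundant RNA of nuclear speckles, had 1179.9, 1169.6, 1195 and 940.4 CPM in cancer libraries and 739, 715, 402 and 561 CPM in naive libraries (1.86-fold higher, adjusted p = 0.00599). An annotated gene on the opposite strand, Gm37376, overlaps 453 exon bases of Malat1 (6.49% of them), and without the strand of the counts their reads cannot be told apart there. Neat1, the RNA scaffold of paraspeckles, had 137, 127, 270.1 and 108 CPM in cancer libraries and 75.5, 63.7, 80.4 and 82.0 CPM in naive libraries (2.13-fold higher, adjusted p = 0.00550). Of 18 nuclear RNAs and splicing factors 8 rose and none fell, against 1.66% of all genes that rose, with a median log2 change of 0.33. The count was 5 without cancer mouse 5, 3 without naive mouse 3, 4 without naive mouse 4 and 0 with the mitochondrial share as a covariate (median -0.01). Son, a splicing protein of speckles, averaged 554 ± 41.0 CPM in cancer and 375 ± 72.0 CPM in naive libraries (1.48-fold higher, adjusted p = 0.0107, and 0.0513 without naive mouse 3).

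Among 20 chromatin regulators 3 rose and 1 fell. The risen Kmt2a, an H3K4 methyltransferase, had 243, 305, 241 and 271 CPM in cancer libraries and 158, 113, 155 and 179 CPM in naive libraries (1.75-fold higher, adjusted p = 0.00718). Ncor1, a corepressor that recruits histone deacetylase, rose 1.58-fold, at 569 ± 56.2 CPM in cancer and 359.8 ± 34.0 CPM in naive libraries (adjusted p = 0.00607), and Arid1a was the third. Kmt2d, another H3K4 methyltransferase, fell 1.96-fold, at 79.2 ± 21.4 CPM in cancer and 155 ± 24.2 CPM in naive libraries (adjusted p = 0.00236). Id2, an inhibitor of E-protein transcription factors and a gene of effector Treg, had 504, 327, 483 and 418 CPM in cancer libraries and 165, 288, 178 and 199 CPM in naive libraries. It was 2.09-fold higher (adjusted p = 0.00911) and the only one of 18 effector tissue Treg genes to pass. Sik2, a salt-inducible kinase, had 58.6, 57.3, 51.1 and 58.8 CPM in cancer libraries and 21.5, 21.3, 26.2 and 9.90 CPM in naive libraries (2.86-fold higher, adjusted p = 0.00552).

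Smaller rises were seen in Tnrc6b, a partner of Argonaute in microRNA silencing (1.57-fold, adjusted p = 0.00402), and Adi1, an enzyme of methionine salvage (1.73-fold, adjusted p = 0.00585). The HSP40 co-chaperones split. Dnaja1 rose 1.36-fold, at 480.4 ± 27.9 CPM in cancer and 354 ± 55.5 CPM in naive libraries (adjusted p = 0.00651, and 0.0526 without naive mouse 4). Dnajb1 fell 1.38-fold, at 283 ± 26.8 CPM in cancer and 391 ± 53.0 CPM in naive libraries (adjusted p = 0.00599; 0.0585 with the GC trend removed). In all, 3 of 18 heat shock and co-chaperone genes rose and 1 fell, with 1 risen without cancer mouse 5 or 6 or naive mouse 3 and 0 without naive mouse 4.

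Of 13 listed mitochondrially encoded messenger RNAs only 7 entered the test. All 7 rose in the full test, with a median log2 change of 1.31, and in each of the 8 fits that left out a mouse. With the 8 libraries alone 0 of the 7 passed, at a median of 1.32. These genes are part of the mitochondrial share that differed between the groups of libraries. The cytochrome oxidase subunit gene mt-Co1 (chromosome M, 5328 to 6872) had 6452, 5365, 11686 and 3623 CPM in cancer libraries and 3199.9, 2127, 1565 and 1825 CPM in naive libraries. The values did not overlap, with cancer mouse 8 nearest to naive mouse 1, and mt-Co1 was 3.11-fold higher (adjusted p = 0.000759). The cytochrome b gene mt-Cytb was 2.39-fold higher (adjusted p = 0.000210), and the complex I subunit genes mt-Nd5 and mt-Nd2 were 2.40-fold and 2.63-fold higher. The median of the list was 0.16, 0.44 and 0.37 in TSLPR-ST2+, TSLPR+ST2- and TSLPR-ST2- Treg. With the mitochondrial share as a covariate, which is built from these genes, it was -0.07. Reads of nuclear copies of mitochondrial genes may be counted with them.

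Nuclear genes of the respiratory chain rose in 7 of 24 tested members, against 1.66% of all genes, with a median log2 change of 0.39. None fell. Cox4i1, a cytochrome oxidase subunit, had 504, 463, 943 and 438 CPM in cancer libraries and 438, 392, 253 and 319 CPM in naive libraries (1.67-fold higher, adjusted p = 0.0151). Cox6c, another subunit, averaged 356.3 ± 165 CPM in cancer and 203 ± 46.4 CPM in naive libraries (1.75-fold higher, adjusted p = 0.0188). For both the highest value was that of cancer mouse 7, the library with the epithelial transcripts, and both calls were lost without it, without naive mouse 3 or without naive mouse 4 (adjusted p up to 0.155). Without any 1 of these mice 0 of the 24 genes passed, and 4 and 3 passed without cancer mouse 5 and naive mouse 2. Ndufb10, a complex I subunit outside the list, averaged 178 ± 40.1 CPM in cancer and 113 ± 14.6 CPM in naive libraries (1.58-fold higher, adjusted p = 0.00718, and 0.0509 without cancer mouse 7).

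Of 15 tested S100, annexin and galectin genes 4 rose, against 1.66% of all genes. All 15 had a positive log2 change, with a median of 0.60, against 7812 of all 14861 genes with a positive change. S100a10, the annexin A2 partner, averaged 974 ± 150.4 CPM in cancer and 644 ± 83.8 CPM in naive libraries (1.51-fold higher, adjusted p = 0.00851). S100a11 averaged 225 ± 11.8 CPM in cancer and 132 ± 15.5 CPM in naive libraries (1.70-fold higher, adjusted p = 0.0160, and 0.0969 without naive mouse 3). S100a6 and Crip1 were the others. Epithelial cells also express S100 and annexin genes. Without cancer mouse 7 the list had 2 risen members and a median of 0.34, without naive mouse 2, 3 or 4 it had 2, 1 and 2, and with epithelial transcripts as a covariate it had 0. Tmsb4x, the actin-binding thymosin beta 4, rose 1.38-fold, at 3785 ± 371 CPM in cancer and 2746 ± 375 CPM in naive libraries (adjusted p = 0.00222), and has similar processed copies that can share reads. Myl12b, a regulatory light chain of nonmuscle myosin, rose 1.41-fold (adjusted p = 0.00340).

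Of 15 tested epithelial markers 8 rose, 0 without cancer mouse 7 or naive mouse 3, and 2 and 1 without naive mouse 2 and naive mouse 4. Phgr1, a gene of gut epithelium, had 24.5, 15.9, 1326 and 7.77 CPM in cancer libraries and 3.48, 2.80, 2.70 and 0 CPM in naive libraries (adjusted p = 0.00608; 0.397 at most in the fits without a mouse, and 0.167 with mouse as a random effect). Lgals4, an epithelial galectin, had 78.7, 25.5, 1759 and 17.2 CPM in cancer libraries and 33.2, 25.7, 11.4 and 3.71 CPM in naive libraries (adjusted p = 0.00993; 0.363 at most without a mouse, and 0.188 with mouse as a random effect). The value of cancer mouse 7 sets the mean of both. Lyz2, the macrophage lysozyme, had 252, 489, 224 and 156 CPM in cancer libraries and 1504, 1317, 932 and 1083 CPM in naive libraries. These values did not overlap, and Lyz2 was 4.32-fold lower (log2 change -2.11 ± 0.96). It did not pass in the fit of 32 libraries (adjusted p = 0.215) and passed with the 8 libraries alone (adjusted p = 0.0443). None of the 12 macrophage markers passed in the full test, with a median log2 change of -0.89, and neither did any of 9 dendritic cell or 11 B and plasma cell markers.

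Several lists had few or no calls. None of 20 proliferation genes passed (median log2 change -0.39), none of 7 genes of colon Treg and Th17 cells (0.39), none of 6 tested helper T cell cytokines (-0.27) and none of 8 glucocorticoid-responsive genes (-0.05). Of 11 suppressive and repair products only Tgfb1 passed. The 16 NF-kappaB genes had a median log2 change of -0.35, with 14 negative and 2 positive, against 6990 and 7812 of all 14861 genes. Of the 16, 1 rose, Nfkb1, in the full test and 0 in 6 of 8 fits without a mouse, while 2 fell without cancer mouse 5. Naive and central T cell genes had 1 of 12 higher, Il7r, and 2 lower, among them S1pr1. None was higher in any of the 8 fits without a mouse, and 0 were lower without naive mouse 2, 3 or 4. Cholesterol synthesis had 2 of 19 lower, glycolysis 1 of 18, the BCL2 family 1 of 15 and the unfolded protein response 1 of 15, with none higher, and each of these had 0 lower members in some fits without a mouse, among them that without naive mouse 3. Of 20 actin cytoskeleton genes 2 rose, and 1 to 3 in those fits.

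**Figure D4:**
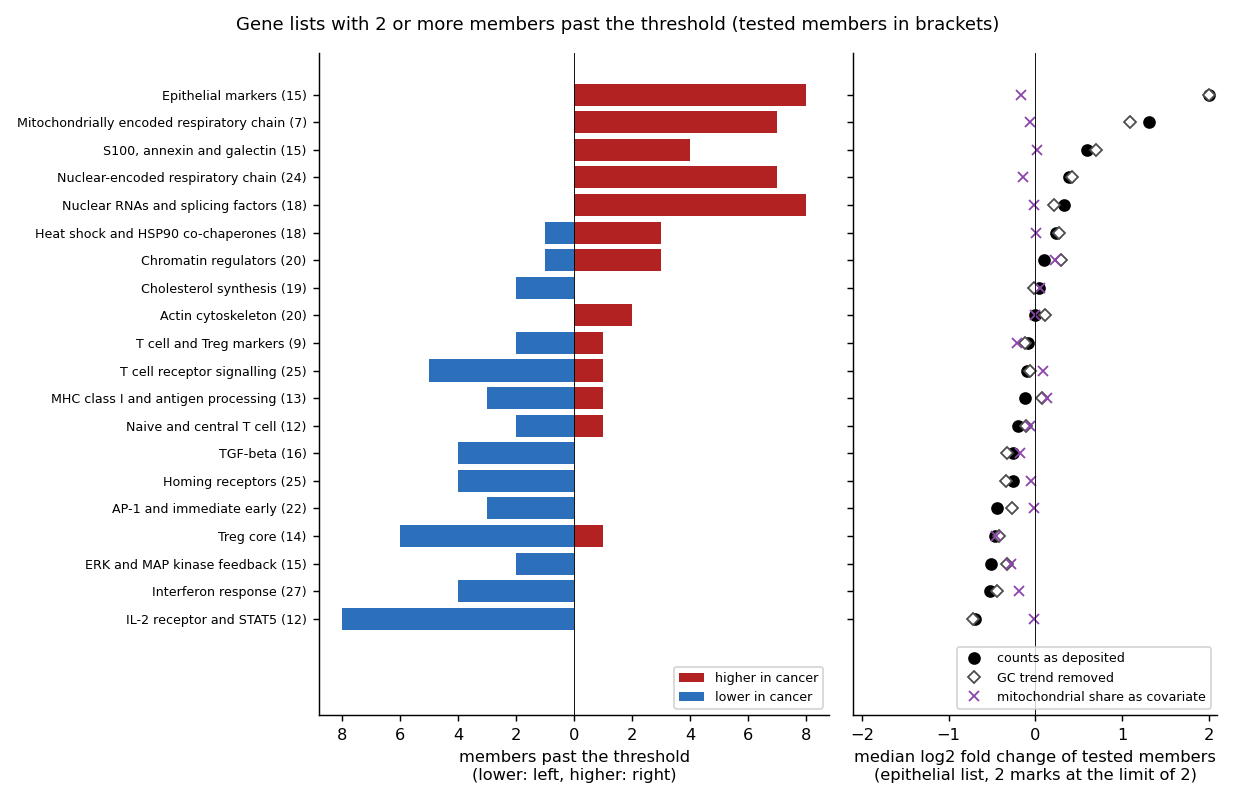
Left, the number of members past the threshold in each gene list with 2 or more of them in TSLPR+ST2+ Treg, lower ones to the left and higher ones to the right. Right, the median log2 change of the tested members in the full test, with the GC trend removed and with the mitochondrial share as a covariate, where the IL-2 receptor and STAT5 list has a median of -0.70 that becomes -0.02 with the covariate, and the mitochondrially encoded list has 1.31 that becomes -0.07.

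Whether the cancer change in TSLPR+ST2+ Treg differed from that in the other gates was tested directly, with the difference of the changes. Against the mean of the other 3 gates 10 genes passed (0.0673% of those tested), 1 higher and 9 lower, and 1677 had an unadjusted p under 0.05. Dusp5 differed by -1.22 ± 0.20 on the log2 scale (adjusted p = 0.00912), with its change at -0.44, -0.42 and -0.64 in TSLPR-ST2+, TSLPR+ST2- and TSLPR-ST2- Treg. Dctn1 differed by -1.65 (adjusted p = 0.00912), Snapc4 by -2.38 (0.0147), Unk by -2.64 (0.0335), Hdac7 by -1.12 (0.0479) and Zfp940 by -9.21 (0.0180), the last a fitted value that the 0 counts make uncertain in size. The other gates had mean levels of Dctn1 of 63.9, 60.3 and 64.4 CPM in cancer and 60.2, 54.1 and 78.4 CPM in naive mice. Sik2 differed by 1.75 (adjusted p = 0.0457) and was 25.8 CPM in cancer against 46.5 CPM in naive mice in TSLPR-ST2+ Treg.

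H2-Q6, a nonclassical class I gene of a family with near-identical members, had 917, 981, 835 and 910.0 CPM in cancer libraries and 873, 1044, 1082 and 1041 CPM in naive libraries of TSLPR+ST2+ Treg. It did not pass there (log2 change -0.15 ± 0.09, adjusted p = 0.367), was at 0.34, 0.48 and 0.53 in the other gates, and differed from them by -0.60 (adjusted p = 0.0116). Against TSLPR-ST2+ Treg alone 4 genes passed (0.0269% of those tested), with 1776 at an unadjusted p under 0.05. They were Sik2 (2.37) on the higher side and Dctn1 (-1.75), Dusp5 (-1.28) and Zfp940 (-9.83) on the lower side, each with adjusted p = 0.0491. With the mitochondrial share as a covariate 0 and 1 genes passed these 2 tests. Leaving out 1 mouse, with its libraries of all gates, gave 0 to 24 and 0 to 13. Depth and mitochondrial share also set cancer and naive libraries further apart in this gate than the medians of the other gates did. The gates were sorted from the same 8 mice, so these comparisons share their animals but not their libraries. Junb, Lrrc32 and Gpr83, by contrast, were also lower past the threshold in TSLPR-ST2+ Treg, with log2 changes of -1.04, -1.51 and -1.18.

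**Figure D5:**
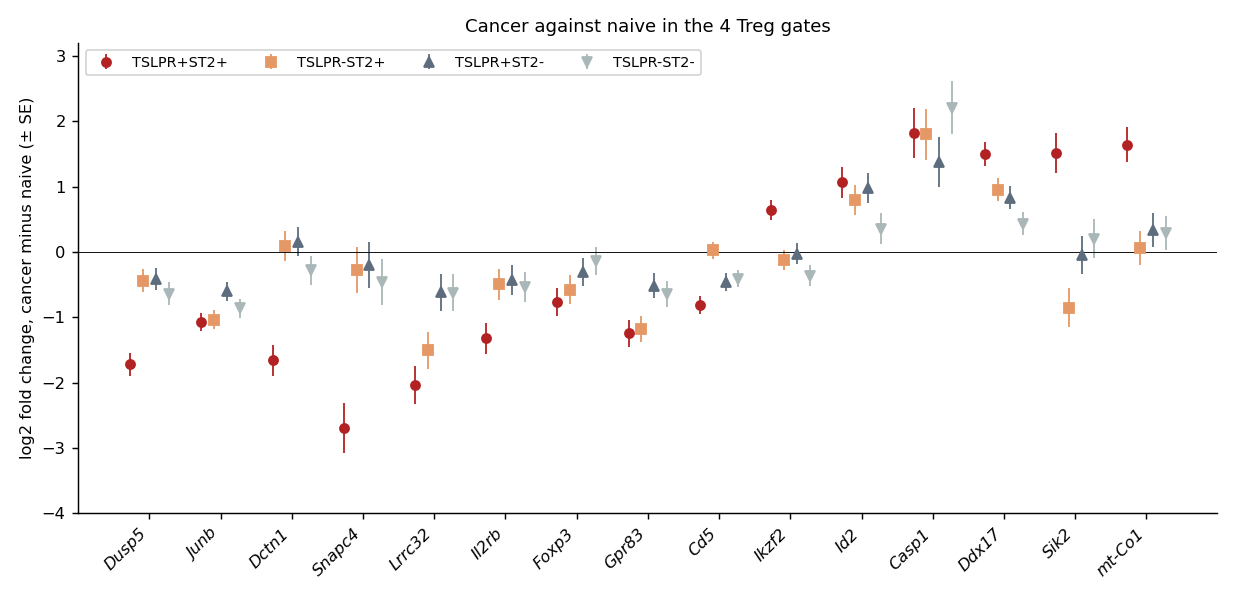
Log2 change (cancer minus naive) with its SE for 15 genes in TSLPR+ST2+ Treg and in the other 3 gates, 4 cancer against 4 naive mice in each. Dusp5, Dctn1 and Snapc4 lie below the other gates in TSLPR+ST2+ Treg and Sik2 lies above them, while Casp1 and Junb lie close together in all gates.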

How the data were processed

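Gene counts were analysed as deposited by the authors: whole-number counts of reads per gene, not normalized, for 53465 Ensembl genes in 33 libraries. Per the labels' protocols, 200 cells per library were sorted into SMART-Seq v4 lysis buffer, full-length cDNA was amplified by PCR, Nextera XT libraries were made, and 58-base single reads were sequenced on a HiSeq 2500. The submitters' processing notes name SAMtools 1.2, FastQC 0.11.3, Picard 1.134, HTSeq 0.4.1 and the build GRCm38, while aligner, strand setting and annotation release were not given in the sources used here. Symbols, exons and GC content of transcripts came from GENCODE M21, which held 53274 of the IDs, and promoters from RefSeq on GRCm38.p6.

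Cancer minus naive in TSLPR+ST2+ Treg was tested with edgeR 4.0.16 in R 4.3.3 by quasi-likelihood. The model had a mean for each group of the 32 Treg libraries, scaled by TMM and fitted robustly, and filterByExpr kept genes by a count of at least 10 and a total of at least 15. Benjamini-Hochberg adjustment ran over all 14861 genes, with a limit of 0.05. The differences between gates are contrasts of the same model. Adjusted p values are from this test unless another fit is named. Values after ± are SD over 4 libraries or, for log2 changes, the standard error (the size of the log2 change over the square root of F). Fold changes are model estimates. CPM of genes use TMM-scaled totals, CPM of summed markers plain totals. Measures of libraries were compared with an exact two-sided permutation test of 4 against 4 values and adjusted over 14 measures. The scripts were tested on simulated data.

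Each library came from 1 mouse, and each mouse gave 1 library per gate. The main model pooled the spread over all Treg libraries and had no term for the mouse. Its p values therefore measure the spread between libraries of a group. Differences between mice and between sorted libraries cannot be told apart in it. Libraries with the same number in different gates came from the same mouse, while cancer and naive mice were different animals, so the comparison within the gate is not paired. Deviations of same-mouse libraries from their group means had a mean correlation of 0.00993 over 48 pairs, 3 of them over 0.1. Libraries of the same mouse thus shared little of this spread. The pairing comes from the mouse number in the labels. The mouse was fitted as a random effect in limma-voom (limma 3.58.1, consensus correlation 0.0218).

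Alternatives were DESeq2 (1.42.0), RLE size factors, omission of the low-count filter and each mouse left out, with its libraries of all gates. Others were the 8 libraries alone (also with quality weights and with DESeq2), thinning to the smallest total and mitochondrial, epithelial and macrophage covariates. Mitochondrial genes were also removed and a non-robust fit was run. Chosen after seeing the data were removal of the GC trend or the length trend and 4 further thinning draws. The named genes are Foxp3, Crlf2 and Il1rl1, the 15 higher and 15 lower genes of smallest p without overlap and with at least 10 CPM, those that passed with the 8 libraries alone, up to 5 a side in each difference between gates, and up to 4 of smallest p in each list. Within this rule the text gives values for 72 genes, others are only counted. Members of lists that passed are also named where a list is described. The lists and the members were chosen with earlier results of these data known.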

Additional observations from a re-analysis of the deposited data

Results flagged for a closer look

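In 172 groups of 4 values, of library measures and of the named genes, the highest or lowest library lay far from the other 3 of its group in 15 cases (8.72%). The cut-off gives about 1 in 20 by chance for independent normal values. CPM of related genes and sums of rare markers need not be such values, so the share cannot be read against that rate. Cancer mouse 7 was set apart by its summed epithelial markers (19023 CPM) and by Phgr1 (1326 CPM), Lgals4 (1759 CPM), Cox4i1 (943 CPM), Cox6c (603 CPM) and Casp1 (234 CPM) on the high side, and by its stromal and endothelial markers (43.7 CPM) on the low side. Cancer mouse 5 had 682 CPM of erythroid and glial markers and cancer mouse 8 had the lowest Malat1 of its group (940.4 CPM). Among naive mice, mouse 1 stood apart in mast cell and eosinophil markers (9.69 CPM) and low Ddx17 (50.7 CPM), mouse 2 in CD8, NK and gamma-delta T cell markers (281.7 CPM) and Zap70 (279.7 CPM), and mouse 3 in Stat5b (504 CPM, high) and S100a11 (109 CPM, low).

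The change with cancer in TSLPR+ST2+ Treg differed from the mean of the other 3 gates, by the test of that difference in edgeR, for Dusp5 (-1.22 on the log2 scale), Dctn1 (-1.65), H2-Q6 (-0.60), Snapc4 (-2.38), Zfp940 (-9.21), Unk (-2.64), Hdac7 (-1.12) and Sik2 (1.75). Against TSLPR-ST2+ Treg alone it differed for Dctn1 (-1.75), Dusp5 (-1.28), Zfp940 (-9.83) and Sik2 (2.37).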

How the results depend on the processing

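The 618 genes became 1196 with DESeq2, 358 without the low-count filter, 4 with the mitochondrial, 217 with the epithelial and 375 with the macrophage covariate, 17 with the 8 libraries alone, 44 with those and quality weights and 3 with those and the GC trend removed. Leaving out 1 mouse gave 171 to 749. The count stayed within 1.5 times of 618 with RLE size factors (634), thinning (669 and, in further draws, 673 to 698), no mitochondrial genes (615), a non-robust fit (589), the 8 libraries in DESeq2 (708) and the GC trend (548) or length trend (479) removed. With mouse as a random effect, the replicate block, 487 genes passed, and of the 68 called genes given with values it ended the calls of Foxp3, Itgb7, Phgr1 and Lgals4, beside that of the marker Krt8. Lists described by counts changed too, with 6 IL-2, 2 AP-1 and 1 MHC class I members lower under it. A fixed mouse factor could not be fitted within the gate, since each mouse is cancer or naive.

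The 10 genes that differed from the mean of the other 3 gates became 125 with DESeq2 and 6 without the low-count filter. They became 0 with the mitochondrial and 6 with the macrophage covariate, and 0 to 24 with 1 mouse left out. With the mouse as a replicate block they were 3 as a random effect and 6 as a fixed factor. The 4 genes that differed from TSLPR-ST2+ Treg became 123 with DESeq2, 11 with the epithelial and 1 with the mitochondrial covariate. With 1 mouse left out they became 0 to 13. They became 0 with RLE size factors, no low-count filter, thinning, the macrophage covariate, no mitochondrial genes, a non-robust fit, or the GC or length trend removed, and 0 and 3 with the mouse as a random effect and as a fixed factor. All 4 had the same adjusted p, 0.0491, just under the limit.

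Signs of the log2 change (cancer minus naive) turned with the mitochondrial covariate for Itgb7 (0.20), Cox6c (-0.14), Stat5b (0.12), Cd6 (0.070), Il1rl1 (0.96), Tnfrsf1b (0.12), Mogs (0.025), Cox4i1 (-0.11), Cotl1 (0.22), Crlf2 (0.33), B2m (-0.053), mt-Co1 (-0.066), H2-Q6 (0.24) and Malat1 (-0.093), and the cause was not tested. H2-Q6 was 0.080 and 0.074 with the GC trend removed (32 and 8 libraries). Il1rl1, at -0.01 and never called, was 0.0095 with RLE, 0.0097 with DESeq2, 0.058 with the mouse block and 0.028 thinned (0.013, 0.0027 and 0.011 in further draws). It was 0.16 with quality weights, 0.0011 with DESeq2 on 8 libraries, 0.17 with the length trend removed, and -0.22 to 0.28 with 1 mouse left out. Depth and the 4 mice per group limit low genes: Unk, Snapc4 and Zfp940 rest on few or no counts in cancer libraries.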
